A study of Mus musculus with 15 samples.

Results

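Hmga1 lies on mouse chromosome 17 among a small group of genes, and 7 of these within 200 kb of it were followed here: Grm4, AI413582, C130040N14Rik, Nudt3, Rps10, Pacsin1 and D17Wsu92e. They were taken by gene symbol from a set list of genes at this distance, out of 21662 symbols in both count tables. Spdef, 150678 bases from Hmga1, is in the tables but not in that list, and had too few counts to be tested. C130040N14Rik was not analysed here because its symbol was not found in the tables, so 6 of the 7 genes have values. RNA of mouse embryonic stem cells (ESC) was sequenced in 15 libraries from 2 experiments. The KO experiment holds 3 WT libraries, 2 of the Hmga1 KO line, 2 labelled as an Hmga1 add-back in that KO line and 2 labelled as an Hmga2 add-back in it. The full-deletion experiment holds 3 WT libraries of its own and 3 of a line whose Hmga1 coding sequence was removed. ESC were of the study's mixed 129Sv-C57Bl/6 background, and the parental line carried a BirA biotin ligase transgene driven by the CAG promoter, which also drove the add-back cDNAs from another genomic site. Each genotype stands for 1 clone, and replicates are cultures of that clone, so a change shared by all libraries of a line cannot be told apart from a change that arose when the clone was made. The 6 libraries of the KO line and its 2 add-back lines share the edited Hmga1 locus and are called KO-derived.

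Hmga1 is a small architectural protein of chromatin that touches the minor groove of AT-rich DNA through its AT-hooks and is abundant in ESC. The genes that flank it share its stretch of chromosome but have little else in common. Nudt3 encodes a Nudix hydrolase that removes phosphate from diphosphoinositol polyphosphates, Rps10 a protein of the small ribosomal subunit, Pacsin1 an F-BAR protein that binds dynamin at sites of membrane uptake, and Grm4 a metabotropic glutamate receptor of neurons. AI413582 and D17Wsu92e are protein-coding genes that the tables know only by cDNA and locus symbols.

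In the NCBIM37 (mm9) assembly Hmga1 covers chr17:27693565-27700619 on the plus strand. AI413582 runs against it at chr17:27700520-27702694 on the minus strand, and the ends of both transcripts share 100 exonic bases on opposite strands. C130040N14Rik (chr17:27702057-27703165, plus strand) shares 505 exonic bases with AI413582, again on opposite strands. Nudt3 (chr17:27716327-27760410), Rps10 (chr17:27767367-27773574) and D17Wsu92e (chr17:27888177-27957503) follow on the minus strand, 15708, 66748 and 187558 bases after Hmga1. Pacsin1 (chr17:27792454-27848051) lies between Rps10 and D17Wsu92e on the plus strand. Grm4 (chr17:27559332-27650286, minus strand) is the one member on the other side, 43279 bases before Hmga1.

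The KO allele was made by Cas9 cutting at the splice donor of exon 3 of Hmga1. The reference sequence there is shown because all KO-derived libraries carry the edit at this point. It covers chr17:27697945-27697974 of NCBIM37 on the plus strand, with the last 12 bases of exon 3 in capitals and the first 18 of the intron in lower case.
Hmga1 exon 3 donor: GCCAAGACCCGGgtgagcctcctaggggac
The start site of AI413582 lies 4738 bases from the end of that exon, that of Grm4 47670, that of Nudt3 62454, that of Rps10 75618, that of Pacsin1 94498 and that of D17Wsu92e 259547. For the full deletion, guides in both untranslated ends of Hmga1 were added to the same approach.

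**Figure D1:**
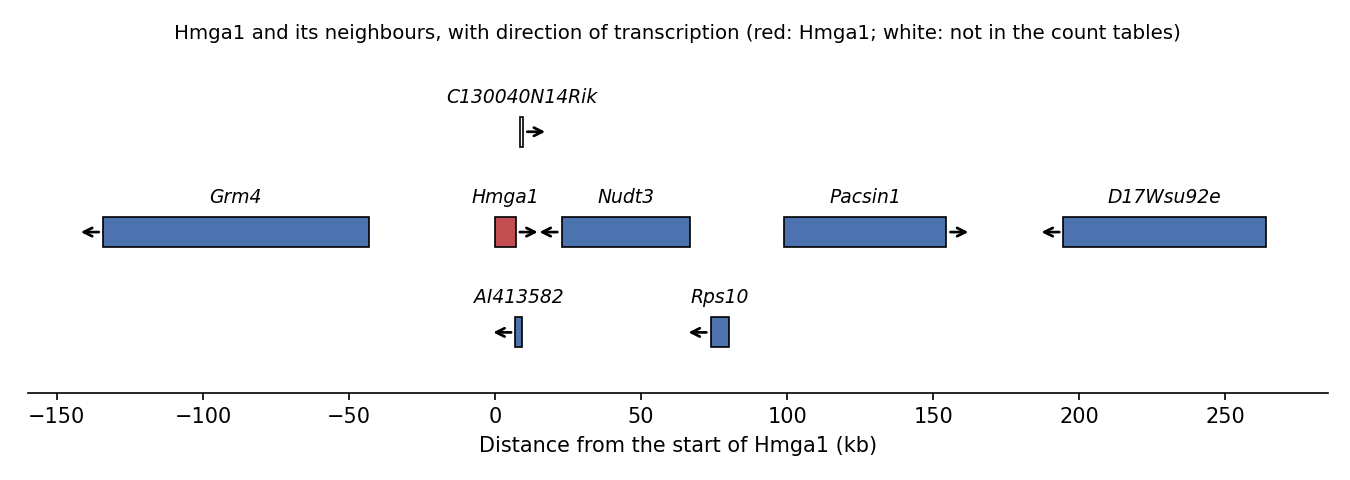
Hmga1 and its 7 neighbours drawn to scale, with the distance in kb from the start of Hmga1 on the x axis and an arrow at the 3′ end of each gene for the direction of transcription. AI413582 and Hmga1 meet end to end, Nudt3 and Rps10 point towards Hmga1, and Pacsin1 points away from it.

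Summed counts per library were between 13465399 and 34952136. Of 8 ESC markers all were detected, with a summed level of 3994 to 7441 CPM (counts scaled to a common library size, with TMM, within an experiment), so the libraries carry the marks of ESC. In these bulk libraries fewer cells expressing a gene and less RNA per cell cannot be told apart. Within the KO experiment 6 markers of feeder fibroblasts summed to 3.57 to 7.56 CPM in WT and 6.96 to 13.4 CPM in the KO-derived libraries. Of the 6, 0 were at 0 throughout WT and 1 or 2 in each KO-derived line. Thy1 made up most of this feeder sum. The group means of Thy1, Col1a1 and S100a4 were higher in each KO-derived line than in WT. Those of Col1a2, Col3a1 and Postn were lower, so the markers did not move together. The 4 endoderm markers summed to 13.8 to 31.1 CPM in WT against 4.32 to 19.6 CPM in the KO-derived libraries. In the full-deletion experiment both lists were low, with feeder sums of 2.21 to 5.22 CPM in WT and 4.97 to 5.69 CPM in the deletion, and endoderm sums of 2.71 to 3.13 CPM and 3.37 to 5.68 CPM. Their part in the results was not tested. WT b of the full-deletion experiment stood apart from all other libraries: 8.78% of its reads came from only 10 genes, where 4.67% to 5.50% did elsewhere. Replicate letters of the KO experiment mark days of library preparation and runs and were entered as a batch term. Only WT was sequenced in batch c, so the term absorbs WT c, which does not enter the group differences directly, although its values are given below.

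Hmga1 itself was read first, as a check of the labels. Its level was 464, 276 and 221 CPM in WT, 217 and 96.1 CPM in the KO, 184 and 123 CPM in the libraries labelled Hmga1 add-back, and 138 and 101 CPM in those labelled Hmga2 add-back. In the other experiment Hmga1 fell from 357, 310 and 355 CPM in WT to 12.3, 10.9 and 12.1 CPM in the deletion. The KO libraries thus kept Hmga1 transcript, and the libraries labelled Hmga1 add-back held no more of it than the KO, with a log2 difference of 0.037 (95% interval -0.34 to 0.42). The RNA reads over this gene therefore do not show the added Hmga1. Hmga1 protein was not analysed here. By western blot the study reported none in the KO and a level comparable to WT in the Hmga1 add-back. How much of the add-back cDNA the gene model counts was not tested, so these reads are no full check of that label. Of the 47-base windows of the Hmga1 transcript 68.4% matched another place in the genome exactly. Hmga2 rose in the libraries labelled Hmga2 add-back, from 23.8, 12.8 and 15.8 CPM in WT to 249 and 222 CPM.

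AI413582, the gene that meets Hmga1 end to end, was low in every KO-derived library. It had 86, 33 and 42 raw counts in WT a to c, 24 and 7 in the KO, 16 and 3 in the libraries labelled Hmga1 add-back, and 21 and 6 in those labelled Hmga2 add-back. After normalization this was 1.74 to 2.72 in WT against 0.225 to 0.673 in the KO-derived libraries, so the groups did not overlap. Over all KO-derived libraries AI413582 had a log2 fold change of -2.43 against WT (SE 0.29), with an adjusted p of 0.0172 in edgeR's quasi-likelihood test (Benjamini-Hochberg, 13912 genes). Calls required an adjusted p under 0.01 and at least a 2-fold change, and AI413582 missed this threshold. Within batch a the KO stood at 24.8% of WT (95% counting interval 15.1 to 39.3%) and within batch b at 20.8% (7.76 to 47.8%). The library labelled Hmga1 add-back in batch b, with its 3 counts, was at 8.79% of WT (1.72 to 28.0%). These intervals cover counting error only.

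The full-deletion line showed a smaller difference in AI413582. Its counts were 68, 60 and 49 in WT and 34, 47 and 35 in the deletion, or 2.36 to 3.68 CPM against 1.59 to 2.06 CPM, again without overlap. This made a log2 fold change of -0.70 (SE 0.24), with an adjusted p of 0.0873 in edgeR's test. Without WT b it was -0.57 (SE 0.25, adjusted p = 0.0792). At 12.3% of the windows of its transcript a read would match elsewhere. Reads of C130040N14Rik, and those of Hmga1 in the 100 exonic bases shared with AI413582, are kept apart from its own only by strand. Whether Hmga1 reads assigned to the wrong strand enter the counts of AI413582 was not tested.

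Nudt3, the next gene with counts, stood in every KO-derived library at about the same fraction of its WT level. It measured 97.2, 75.8 and 82.8 CPM in WT a to c, 45.2 and 38.1 CPM in the KO, 45.3 and 36.7 CPM in the libraries labelled Hmga1 add-back, and 40.4 and 35.3 CPM in those labelled Hmga2 add-back. The highest KO-derived library lay well under the lowest WT library. The group means were 85.3 ± 10.9 CPM in WT (SD, n = 3) and 41.6 ± 5.03 CPM in the KO (SD, n = 2). Within batch a the 3 KO-derived libraries had 46.5%, 46.6% and 41.5% of the WT level, and within batch b 50.2%, 48.5% and 46.6%.

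In the test over all KO-derived libraries Nudt3 fell by 1.10 on the log2 scale (SE 0.085, adjusted p = 0.00302 in edgeR's test) and ranked 4 by p-value among 13912 genes. It was called there and in the libraries labelled Hmga2 add-back, where it fell by 1.19 (SE 0.11, adjusted p = 0.00639), although the latter call was lost on leaving out any library but WT b or WT c (adjusted p up to 0.22). For the KO alone the log2 fold change was -1.05 (SE 0.11, adjusted p = 0.0224), and for the libraries labelled Hmga1 add-back -1.07 (SE 0.11, adjusted p = 0.0242). These 3 comparisons share their WT libraries, so they are not independent. The call over all KO-derived libraries was lost without WT a (adjusted p = 0.0492), and likewise without either KO library, the library labelled Hmga1 add-back a or either library labelled Hmga2 add-back, while the log2 fold change stayed between -1.16 and -1.04 whichever library was left out. Without the batch term the adjusted p was 0.0189 over all KO-derived libraries and 0.0921 for those labelled Hmga2 add-back, and neither was then called.

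Beside the full deletion, Nudt3 was at 176, 289 and 167 CPM in WT a to c, and at 115, 123 and 125 CPM in the deletion itself. All 3 deletion libraries lay under all 3 WT libraries, and the highest value came from WT b, the library that stood apart. Its log2 fold change was -0.80 (SE 0.21), with an adjusted p of 0.0561 in edgeR's test. Without WT b the difference shrank to -0.50 while its SE fell to 0.057 (adjusted p = 1.64e-06), in a fit in which 42.5% of all genes had an adjusted p under 0.05. No window of the Nudt3 transcript matched elsewhere in the genome.

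Pacsin1 stood on the high side in the KO-derived libraries. Its values were 4.90, 7.60 and 7.06 CPM in WT, 21.3 and 15.5 CPM in the KO, 22.1 and 11.2 CPM in the libraries labelled Hmga1 add-back, and 16.4 and 13.5 CPM in those labelled Hmga2 add-back. Every KO-derived library was above every WT library. The log2 fold change over all KO-derived libraries was 1.42 (SE 0.29, adjusted p = 0.0657 in edgeR's test), and Pacsin1 was not called. The size of the difference was not the same in both batches. In batch a the KO-derived libraries had 434%, 451% and 335% of the WT level, and in batch b 204%, 147% and 178%. WT b was at 155% of WT a for Pacsin1, whereas in the KO-derived lines batch b was at 50.5% to 82.4% of batch a. The log2 fold change was 0.82 without WT a (adjusted p = 0.551) and 2.02 without WT b of this experiment (adjusted p = 0.00589).

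Against its own WT in the full-deletion experiment, Pacsin1 was at 9.59, 9.99 and 7.80 CPM in WT and at 12.5, 13.0 and 12.8 CPM in the deletion. The groups did not overlap, with a log2 fold change of 0.49 (SE 0.14, adjusted p = 0.0598 in edgeR's test), and of 0.56 without WT b (SE 0.12, adjusted p = 0.00125). Because Pacsin1 is best known from neurons, 4 neural markers (Pax6, Neurod1, Tubb3 and Map2) were summed beside it. Their sum was 117 to 136 CPM in WT and 105 to 141 CPM in the KO-derived libraries, and 146 to 156 CPM in WT against 127 to 132 CPM in the deletion, and none of the 4 was at 0 in a group. Most of this sum was Tubb3. Singly, all 4 had log2 fold changes under 0 over the KO-derived libraries, with a median of -0.42, and Pax6 stood at 12.7 to 17.5 CPM in WT and at 3.52 to 10.9 CPM in the KO-derived libraries (log2 fold change -1.58, adjusted p = 0.0576). In the full deletion the 4 ranged from -0.30 to -0.021. Their part in the values of Pacsin1 was not tested.

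Rps10, between Nudt3 and Pacsin1, did not part the groups. Its level was 121, 81.2 and 125 CPM in WT and ran from 80.3 to 175 CPM in the KO-derived libraries, where all batch b values lay near that of WT b. Within batch b the KO-derived libraries were at 98.9% to 103% of WT, and within batch a at 119% to 145%. Over all KO-derived libraries its log2 fold change was 0.20 (SE 0.11, adjusted p = 0.358 in edgeR's test), and single libraries moved it to 0.029 (without WT a) or 0.38 (without WT b). With the full deletion Rps10 was at 334, 556 and 325 CPM in WT and at 309, 343 and 340 CPM in the deletion, with a log2 fold change of -0.29 (SE 0.22, adjusted p = 0.342) that became 0.0057 without WT b. Rps10 is also the least certain of these genes, as 81.7% of the windows of its transcript matched a second place in the genome, and the study placed such reads at random. A further 60 exonic bases are shared with Gm15420 on the other strand.

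D17Wsu92e, the most distant member, varied little between libraries. Its values were 181, 194 and 177 CPM in WT, 220 and 212 CPM in the KO, 224 and 212 CPM in the libraries labelled Hmga1 add-back, and 196 and 210 CPM in those labelled Hmga2 add-back. The KO-derived libraries did not overlap WT, yet the difference was small, with a log2 fold change of 0.18 (SE 0.086, adjusted p = 0.295 in edgeR's test). In the full-deletion experiment it was at 108, 80.4 and 90.5 CPM in WT and at 112, 110 and 112 CPM in the deletion (log2 fold change 0.27, SE 0.12, adjusted p = 0.16), and the log2 fold change without WT b was 0.17 (SE 0.067, adjusted p = 0.0467).

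Grm4, on the other side of Hmga1, was barely expressed. Its raw counts were 31, 4 and 17 in WT, 58 and 6 in the KO, 96 and 4 in the libraries labelled Hmga1 add-back, and 65 and 7 in those labelled Hmga2 add-back. The values parted by batch, with batch b at 10.9% to 31.7% of batch a in the 4 lines. Over all KO-derived libraries Grm4 had a log2 fold change of 0.92 (SE 0.40, adjusted p = 0.253 in edgeR's test), which was 0.43 without WT a and 0.55 without the library labelled Hmga1 add-back a. In the full-deletion experiment the counts were 7, 9 and 22 in WT and 33, 39 and 27 in the deletion. On the normalized scale this was 0.332 to 1.06 CPM against 1.23 to 2.00 CPM, without overlap, with a log2 fold change of 1.31 (SE 0.43, adjusted p = 0.0807), and of 1.21 without WT b (adjusted p = 0.0245).

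**Figure D2:**
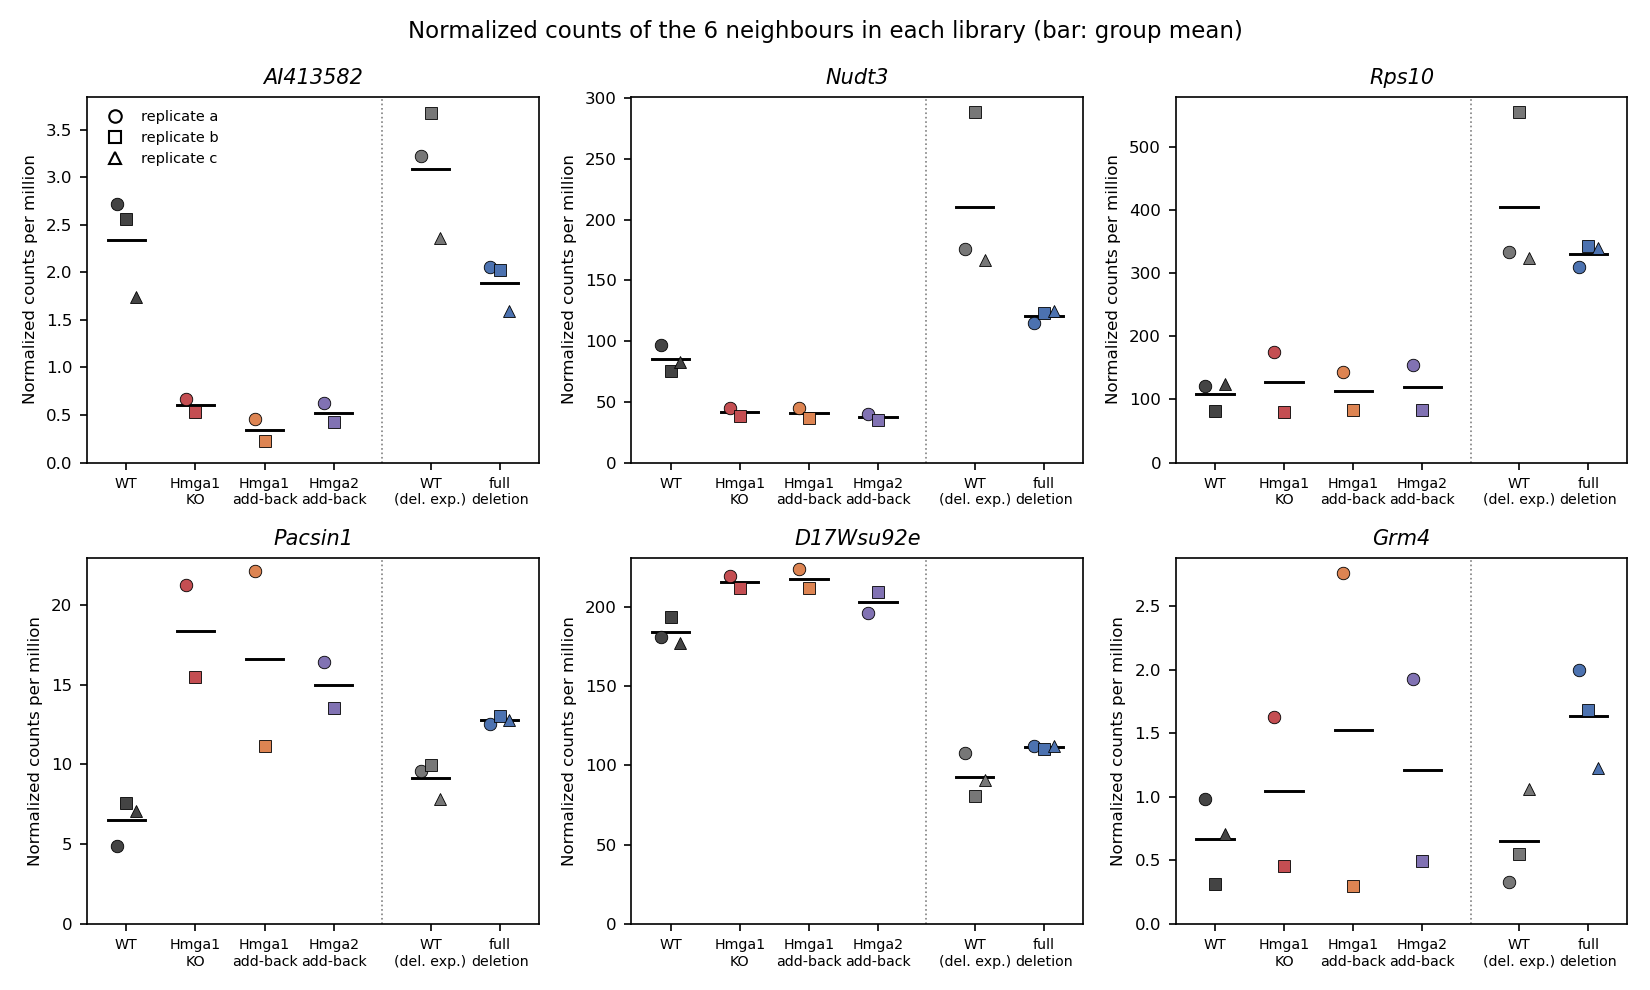
Normalized counts (CPM) of each of the 6 neighbours on the y axis, with 1 point per library, its shape giving the replicate letter, and a bar at the group mean. The 2 experiments are parted by a dotted line and were normalized separately. AI413582 and Nudt3 lie lower, and Pacsin1 higher, in all KO-derived libraries than in WT.

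Per length, the order of the neighbours in WT of the KO experiment was Rps10 at 190 ± 42.1 RPKM, D17Wsu92e at 44.8 ± 2.09, Nudt3 at 39.3 ± 5.04, AI413582 at 3.68 ± 0.82, Pacsin1 at 1.51 ± 0.33 and Grm4 at 0.15 ± 0.076 RPKM (SD, n = 3). The RPKM of Nudt3 and D17Wsu92e overlapped between libraries, and the other neighbouring ranks did not. In WT of the full-deletion experiment Nudt3 (97.0 ± 31.3 RPKM) stood above D17Wsu92e (22.6 ± 3.35 RPKM), with the remaining order as before. Levels are thus given within an experiment, since the tables were normalized separately and the difference between both sets of WT was not tested.

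Counted together in edgeR's test, 0 of the 6 neighbours were called in the KO alone, where 0.0216% of 13912 genes were called in either direction. Hmga1, the edited gene, was called over all KO-derived libraries (adjusted p = 0.0052) but not in the KO alone (log2 fold change -1.29, adjusted p = 0.0534). Nudt3, AI413582 and Pacsin1 had an unadjusted p under 0.05 there, as did 1747 of all genes. The Wald test of DESeq2 called 2, Nudt3 and Pacsin1, beside 76 over all genes. In the libraries labelled Hmga1 add-back 0 were called, beside 0.0144% of genes. Of the neighbours 4 had an unadjusted p under 0.05, beside 1844 of all genes, and 3 were called by DESeq2, beside 76. In those labelled Hmga2 add-back and over all KO-derived libraries 1 was called, Nudt3, beside 0.0647% of genes in both. For the former 3 had an unadjusted p under 0.05, beside 2352 of all genes, and DESeq2 called 1, beside 107. For the latter 4 had one, beside 2711, and DESeq2 called 3, Nudt3, AI413582 and Pacsin1, beside 131. In the full deletion 0 were called, beside 0.0687% of 13098 genes. There 4 had an unadjusted p under 0.05, beside 4843 of all genes, and 0 were called by DESeq2, beside 463. The looser threshold of an adjusted p under 0.05 at any fold was met by Nudt3 in the KO (0.0647% of genes met it), in the libraries labelled Hmga1 add-back (0.0431%) and in those labelled Hmga2 add-back (0.165%). Over all KO-derived libraries Nudt3 and AI413582 met it, beside 0.748% of genes, although AI413582 did not without WT a (adjusted p = 0.171). In the full deletion 0 of 6 met it, beside 8.25%, and without WT b 4 of 6 did, 3 higher and 1 lower, beside 20.5% and 22% of genes.

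By position of the normalized values (CPM) alone, Nudt3 and AI413582 were lower in all KO-derived libraries than in all WT libraries, as were 3.69% of genes, and Pacsin1 and D17Wsu92e were higher, as were 5.15%. In the full-deletion experiment the same pair lay lower, as did 24.6% of genes, and Pacsin1, D17Wsu92e and Grm4 higher, as did 26.7%. Nudt3 and AI413582 were lower in both experiments, a pattern of 1.34% of genes, and Pacsin1 and D17Wsu92e were higher in both, a pattern of 2.03%. The median log2 fold change of the 6 neighbours was 0.19 over the KO-derived libraries and -0.013 in the full deletion, beside -0.0043 and 0.043 over all genes. Neither median describes the group well, since its members lay on both sides of 0.

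**Figure D3:**
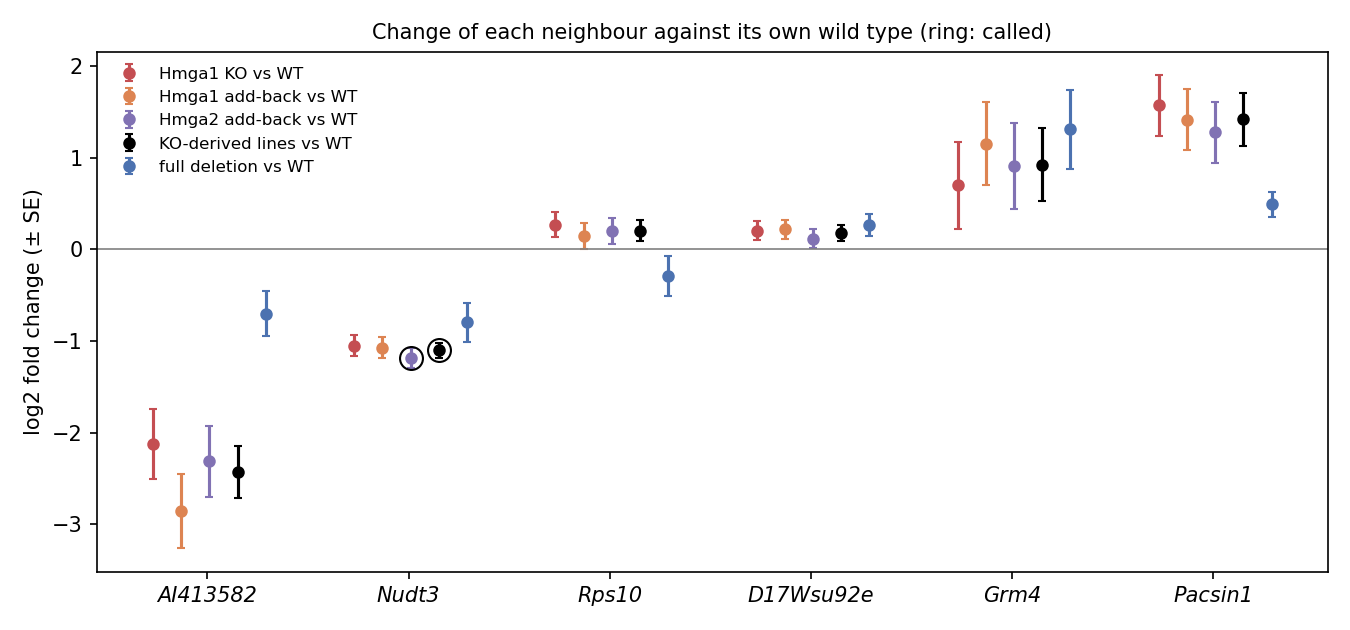
The log2 fold change of each neighbour against the WT of its own experiment on the y axis, with bars for 1 SE, for 4 comparisons of the KO experiment, which share their WT libraries, and for the full deletion. Rings mark the 2 calls, both of Nudt3, and AI413582 shows the widest gap between the KO-derived lines and the full deletion.

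The add-back lines were also compared with the KO line in which they were made. By edgeR's test 0 of 6 neighbours were called between an add-back line and the KO, where 0% of all genes were called for the libraries labelled Hmga1 add-back and 0.00719% for those labelled Hmga2 add-back, the latter being Hmga2 itself. In both comparisons 0 neighbours had an unadjusted p under 0.05 and 0 were called by DESeq2. Over all genes 390 and 708 had such a p, and DESeq2 called 2 and 10. For Nudt3 the log2 difference from the KO was -0.023 (95% interval -0.28 to 0.23) in the libraries labelled Hmga1 add-back and -0.14 (-0.39 to 0.12) in those labelled Hmga2 add-back. The KO itself differed from WT by -1.05 for Nudt3 (95% interval -1.31 to -0.80), an estimate from the same KO libraries. Whether a returned Hmga protein alters Nudt3 was not tested apart from the clones. For AI413582 the differences were -0.73 (-1.76 to 0.30) and -0.19 (-1.17 to 0.80), for Pacsin1 -0.15 (-0.86 to 0.55) and -0.29 (-1.0 to 0.41). For Rps10 they were -0.12 (-0.44 to 0.19) and -0.07 (-0.39 to 0.25), for D17Wsu92e 0.015 (-0.22 to 0.25) and -0.089 (-0.33 to 0.15), and for Grm4 0.45 (-0.53 to 1.44) and 0.21 (-0.80 to 1.22). The level of Hmga1 protein behind these intervals was not analysed here.

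Whether the KO and the full deletion differed in their effect was tested in a joint fit of all 15 libraries. By edgeR's test 0 of 6 differences were called, beside 0.0951% of genes. There were 2 at an unadjusted p under 0.05, beside 2512 of all genes, and 0 called by DESeq2, beside 109. The log2 difference of effects, KO minus full deletion, was -1.40 for AI413582 (95% interval -2.37 to -0.44, unadjusted p = 0.00805, adjusted p = 0.204 in edgeR's test) and 1.09 for Pacsin1 (0.30 to 1.88, adjusted p = 0.223). For Nudt3 it was -0.24 (-0.86 to 0.39, adjusted p = 0.65), so neither equal effects nor a marked difference can be read from it. With single libraries left out the value for Nudt3 ran from -0.52 to -0.087, and it was not called in any of 22 refits. Rps10 (0.57), D17Wsu92e (-0.052) and Grm4 (-0.60) had intervals that hold 0.

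Within 1 Mb of Hmga1 lie 29 further genes of both tables, all but Spdef beyond 200 kb, of which 25 passed the filter on low counts beside the KO and 26 beside the full deletion. None of the 25 was called or had an adjusted p under 0.05 in any of the comparisons of the KO experiment with WT. Over the KO-derived libraries their log2 fold changes had a median of 0.11, with 22 above and 3 below 0. Over all genes 6868 were above and 7044 below 0. These genes share their libraries, and the split was not tested. In the full deletion 5 of 26 (19.2%) had an adjusted p under 0.05 and were higher, beside 4.47% of all genes, and 0 were lower. These were Scube3, which encodes a secreted signalling protein (log2 fold change 1.09, adjusted p = 0.0279), Tcp11 (0.91, adjusted p = 0.0241), the nuclear receptor gene Ppard (0.57, adjusted p = 0.0383), the zinc finger gene Zfp523 (0.82, adjusted p = 0.04) and Tulp1 (1.11, adjusted p = 0.048). All 5 lie between 503073 and 787841 bases after Hmga1, and none of them was called in the fit with all libraries. Without WT b the same 5 stayed higher, among 9 of the 26, and 2 of the 26 were lower, in a fit where 20.5% of all genes were higher and 22% lower at this threshold. In that fit Scube3 (1.12, adjusted p = 6.58e-05) and Tulp1 (1.36, adjusted p = 0.000972) were called, beside 2.75% of all genes. In the KO-derived libraries Scube3 (0.79) and Tcp11 (0.82) also had positive log2 fold changes, with adjusted p of 0.186 and 0.202.

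**Figure D4:**
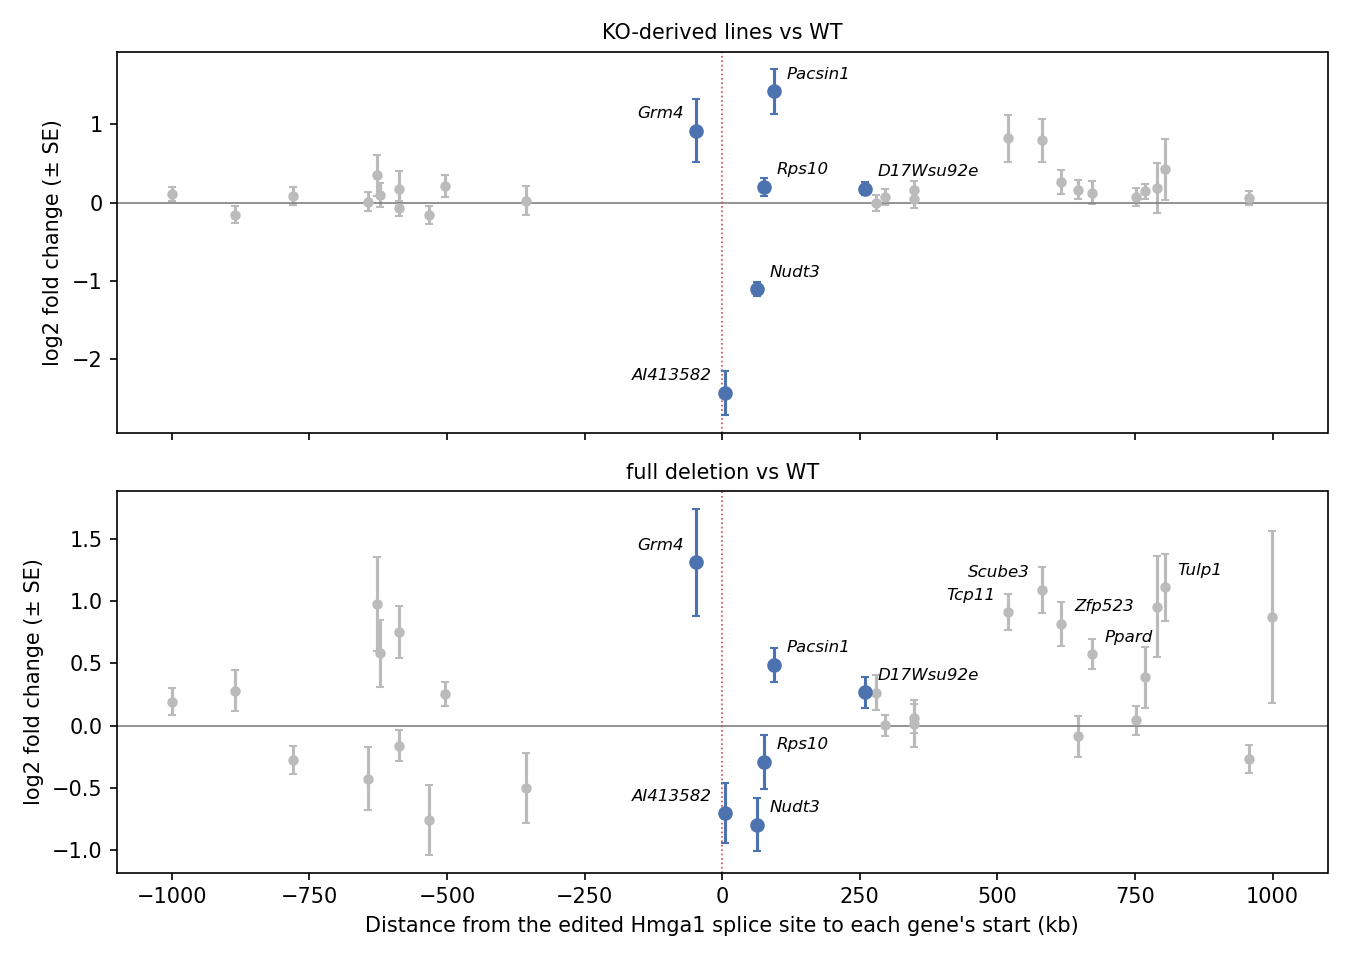
The log2 fold change of every tested gene within 1 Mb of Hmga1 on the y axis (bars, 1 SE) against the distance in kb from the edited splice donor of Hmga1 to its start site, with the neighbours in blue and further genes in grey, 31 genes over the KO-derived libraries and 32 in the full deletion. Over the KO-derived libraries AI413582 and Nudt3 lie farthest below 0 and Pacsin1 farthest above it, and in the full deletion the 5 named grey genes lie to the right.

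The pathways of the neighbours were then read for their other genes. Of 29 further proteins of the small ribosomal subunit, the partners of Rps10, all were tested and 0 were called in any comparison. Their median log2 fold change was 0.039 over the KO-derived libraries and 0.30 in the full deletion, where it was 0.16 without WT b. In the full deletion 0 of the 29 had an adjusted p under 0.05 with all libraries. Without WT b 13 were higher and 3 lower at this threshold, beside 20.5% and 22% of all genes. The most abundant, Rps3, had log2 fold changes of 0.16 (adjusted p = 0.449) and 0.71 (adjusted p = 0.0707). Of 12 genes of inositol pyrophosphate metabolism, the pathway of Nudt3, 11 were tested for the KO-derived lines and 10 for the full deletion, and 0 were called. In the full deletion Ppip5k2, a kinase that makes these molecules and the most abundant of the list, had a log2 fold change of -1.02 (adjusted p = 0.0407), and the kinase gene Ip6k1 one of 0.48 (adjusted p = 0.0356). Without WT b these were -0.72 (adjusted p = 1.14e-07 in edgeR's test) and 0.44 (adjusted p = 0.000104). In that fit 42.5% of all genes had an adjusted p under 0.05. Over the KO-derived libraries these were -0.31 (adjusted p = 0.219) and -0.041 (adjusted p = 0.858).

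Among 5 relatives and partners of Pacsin1, 0 were called. The neuronal dynamin gene Dnm1 had a log2 fold change of 1.56 in the full deletion (SE 0.24, adjusted p = 0.0232) and of 0.96 over the KO-derived libraries (SE 0.42, adjusted p = 0.26). Without WT b of the full-deletion experiment Dnm1 was called, at 1.77 (adjusted p = 3.59e-06), beside 2.75% of all genes. Pacsin2, the widespread form and the most abundant of the list, had log2 fold changes of 0.13 and -0.075. Of the 7 other metabotropic glutamate receptor genes, Grm2 alone passed the filter, in the KO experiment, with a log2 fold change of -1.16 over the KO-derived libraries (adjusted p = 0.186).

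The genes whose levels followed each neighbour most closely were sought among 9681 genes whose mean count reached 100 in both experiments. Likeness was measured as Pearson's r of log2 CPM over all 15 libraries, each experiment centred on its mean, as a description of libraries that share batch and line. Nudt3 was most like Ankrd6 (0.93), Grb10 (0.90) and B4gat1 (0.89). AI413582 was most like Nudt3 itself (0.89), followed by Eif2s3y (0.86) and Emb (0.86). Between Nudt3 and AI413582, r was 0.95 over the 9 libraries of the KO experiment and 0.89 over the 6 of the full-deletion experiment. Pacsin1 was most like Zc3h6 (0.94), Mgarp (0.93) and Acan (0.93), Rps10 most like Rnf115 (0.96), Rnps1 (0.94) and Def6 (0.93), D17Wsu92e most like Rab5b (0.90), Slc39a11 (0.89) and Dym (0.88), and Grm4 most like Jph3 (0.94), Gadd45b (0.93) and Rgs3 (0.92). Def6 lies in the same stretch of chromosome 17, 644104 bases after Hmga1.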

How the data were processed

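Strand-specific libraries (ScriptSeq v2) were made from RNA without its ribosomal part. The deposited raw counts were made by the authors, who trimmed 3 bases, aligned reads to mm9 with Bowtie through QuasR, placed reads with several hits at random and counted reads on the strand of UCSC known genes. Per the labels, bcl2fastq 2.17 was used. The values were whole numbers. Here, genes whose mean count reached 10 were normalized (TMM) and tested with edgeR 4.0.16 (quasi-likelihood test, R 4.3.3, Benjamini-Hochberg adjustment), on the 9 libraries of the KO experiment with a batch term, on the 6 of the full-deletion experiment without, and on all 15 jointly. Same-letter libraries of the KO experiment deviated together, with r of 0.319 to 0.427 against WT, and the study names the letters as batches. RPKM used exonic lengths of the tables. Positions came from GENCODE vM1 (NCBIM37). Members and lists were chosen with earlier results of these data known. Genes named besides the members were those of the wider neighbourhood or the lists with an adjusted p under 0.05 or called, the most abundant of each list, and the 3 most like each member. Scripts were tested on simulated data. Alternatives were other scalings, filters, thresholds, DESeq2 1.42.0, limma 3.58.1, the batch term and leaving out each library. The ratios per batch are relative to WT of that batch.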

Additional observations from a re-analysis of the deposited data

Results flagged for a closer look

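One value differed between both experiments by the test of the difference itself. The log2 effect of the KO on Hmga1, the edited gene, exceeded that of the full deletion by 3.58 (SE 0.22, adjusted p = 1.98e-05 in edgeR's test), at -1.29 for the KO against -4.86 for the full deletion. No neighbour met this threshold. Groups held only 2 or 3 libraries, and outlying values in single genes were not tested.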

How the results depend on the processing

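Over 800 refits of 48 log2 fold changes of the neighbours (6 genes in 8 comparisons), 758 kept their direction and their side of the threshold, 16 lost a call, 14 gained one and 12 changed sign. All 16 losses were of Nudt3, which held the only 2 calls that could be lost. Its call in the libraries labelled Hmga2 add-back was lost in 9 of 17 refits. That over all KO-derived libraries was lost in 7 of 16. The number of neighbours called in the KO alone, 0 in the report, was 1 at an adjusted p under 0.05 with the same fold, 1 with no filter on low counts, 2 with the Wald test of DESeq2, and 0 to 2 with single libraries left out, 2 (Nudt3 and Pacsin1) only without WT b. For the libraries labelled Hmga1 add-back it was 1, 1 and 3 under the same settings and 0 to 1 with single libraries left out, 1 (Nudt3) only without WT b. For those labelled Hmga2 add-back, 1 in the report, it was 0 with summed counts only, 0 without the replicate block and 0 to 1 with single libraries left out. Over all KO-derived libraries, 1 in the report, it was 2, 2 and 3 under the first 3 settings, 0 without the replicate block (Nudt3 then had an adjusted p of 0.0189), and 0 to 2 with single libraries left out, 2 (Nudt3 and Pacsin1) only without WT b. Calls over all genes moved as well. In the KO they were 3 in the report, 9 and 17 under the first 2 settings, 76 with DESeq2 and 62 without WT b. In the same order they were 2, 6, 6, 76 and 37 for the libraries labelled Hmga1 add-back. Over all KO-derived libraries they were 9, 78, 39, 131 and 179. The letters of the full-deletion experiment paired no libraries (r of -0.055 to 0.070), and with the replicate block the count there stayed at 0.

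The changes of sign were of values that had not been called. With single libraries left out, the difference of the libraries labelled Hmga1 add-back from the KO ran from -0.062 to 0.076 for D17Wsu92e (below 0 without their replicate a, and -0.029 without KO b), from -0.61 to 0.76 for Grm4, from -0.70 to 0.22 for Pacsin1 and from -0.30 to 0.061 for Rps10. That of the libraries labelled Hmga2 add-back ran from -0.12 to 0.43 for Grm4 and from -0.24 to 0.13 for Rps10. Rps10 ran from -0.035 to 0.33 in the libraries labelled Hmga1 add-back against WT, and from -0.43 to 0.0057 in the full deletion. D17Wsu92e ran from -0.16 to 0.068 for the difference of effects. With summed counts Nudt3 was 0.0051 in the libraries labelled Hmga1 add-back against the KO, and Rps10 was 0.039 in the full deletion, where this scaling moved the median of all genes to 0.32. With 1 library left in a group, that library was assumed to vary like the other groups. The causes were not tested. Depth limits AI413582 and Grm4, which had under 100 counts in every library. Using only the groups compared is the same fit for all KO-derived libraries and was not repeated.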
